A study of Homo sapiens with 6 samples.

Results

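Glucose enters a cell through facilitative transporters and is held there once a hexokinase has phosphorylated it. The bifunctional PFKFB enzymes then set the speed of glycolysis, because they make and remove the bisphosphate activator of phosphofructokinase, which TIGAR also degrades. Pyruvate dehydrogenase kinases (PDKs) act at the far end, inside the mitochondrion, where they phosphorylate pyruvate dehydrogenase and so switch off the conversion of pyruvate to acetyl-CoA. The 10 genes described here cover these steps. They are the transporters SLC2A1 and SLC2A3, the hexokinase HKDC1, the bifunctional enzymes PFKFB2, PFKFB3 and PFKFB4, the bisphosphatase TIGAR, and the kinases PDK1, PDK3 and PDK4. They are chosen by name, with no measured value in the rule, although earlier results of these data were known. Each symbol is matched to 1 of the 58395 Ensembl genes in the libraries. All 10 hold enough counts to be among the 15566 genes tested.

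The RNA of HCT116, a human colorectal cancer line, is compared between cells that carry a non-target hairpin (shControl) and cells that carry a hairpin against STBD1 (shSTBD1), in 3 biological replicates each. STBD1 is a glycogen-binding protein that tethers glycogen to the autophagy machinery. Both groups are infected with lentivirus, put under drug selection and grown in DMEM with fetal bovine serum. The paper gives puromycin or G418 as the drug, without saying which these lines received. Each target has 1 hairpin in these libraries, so depletion of STBD1 and any other effect of that hairpin cannot be told apart, and the lines are not said to be clones.

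Libraries hold between 17689097 and 21668274 expected counts, which are RSEM's estimates of the reads from each gene, and their scaling factors by edgeR's TMM method lie between 0.979 and 1.009. In library-scaled counts (CPM, counts per 1000000), STBD1 reads 16.2, 15.7 and 14.4 in shControl 1 to 3 and 11.6, 9.06 and 9.18 in shSTBD1 1 to 3. It fell by 0.64 on the log2 scale (SE 0.098, adjusted p = 0.00029 by edgeR's quasi-likelihood F-test, Benjamini-Hochberg over all tested genes), without overlap between the groups, and in limma on TPM its adjusted p is 0.0646 or 0.0672. RSEM's posterior standard deviation of its count reaches 10.4%, which marks reads that RSEM could not place on a single gene. Among 9 colon epithelial markers, 6 are tested. Of these, 4 are called higher in shSTBD1 (CDH1, KRT8, KRT18 and KRT19), a direction called for 8.22% of all tested genes. The summed level of the 9 markers is 2858 to 2893 TPM (RSEM's level per transcript length, summing to 1000000 per library) in shControl and 3242 to 3378 TPM in shSTBD1. This sum is mostly keratin RNA. EPCAM is not called (log2 fold change 0.04), nor is the intestinal transcription factor CDX2 (log2 fold change -0.07 in edgeR), whose level per length is 7.65, 7.46 and 6.89 TPM in shControl and 5.59, 4.57 and 6.0 TPM in shSTBD1, without overlap. CDH17, LGALS4 and VIL1, which mark differentiated colon epithelium, stay at or below 0.21 TPM in every library. Among 8 markers of fibroblasts, leukocytes and endothelium, LUM, PTPRC and CD3E are at 0 in every library and 2 are tested. CD68 is called higher (log2 fold change 0.47, adjusted p = 0.0027 in edgeR). Its level is 7.25 ± 0.68 TPM in shControl and 11.3 ± 0.63 TPM in shSTBD1 (SD, n = 3), without overlap. The fibroblast marker COL1A1 is not called (log2 fold change 0.13, adjusted p = 0.25 in edgeR). COL1A1 holds most of the summed level of the 8, at 17.0 ± 2.48 TPM in shControl and 18.5 ± 1.91 TPM in shSTBD1 (SD, n = 3). This sum is 22.2 to 26.1 TPM in shControl and 29.0 to 32.0 TPM in shSTBD1. The part of these marker shifts in the results below was not tested. In bulk RNA, fewer cells of a kind and less RNA per cell cannot be told apart.

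Of the 10 genes, 5 pass an adjusted p of 0.05 in edgeR, where 15.8% of all tested genes do. As the genes were chosen with earlier results of these data known, this comparison is a description and not a test. SLC2A1, SLC2A3, PFKFB4 and HKDC1 are lower in shSTBD1, a direction called for 7.54% of tested genes. PDK3 alone is called higher, as are 8.22% of tested genes. SLC2A1 is also past an unadjusted p of 1e-5, which 2.38% of tested genes pass. The CPM ranges of the groups do not overlap for 6 of the 10 genes, the 5 called genes and PDK1, beside 33.6% of all tested genes. The count of 5 becomes 3 with DESeq2 and 1 with effective-length offsets or limma on TPM. Without shControl 3, shSTBD1 1 or shSTBD1 2 it is 3, 3 and 2. The median log2 fold change of the 10 is -0.055 and the median of its size is 0.169, beside 0.0023 and 0.11 over all tested genes. With 3 libraries against 3, an exact two-sided permutation test of a single gene cannot go below p = 0.1, which is its value for each of the 6 genes whose groups do not overlap.

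**Figure D1:**
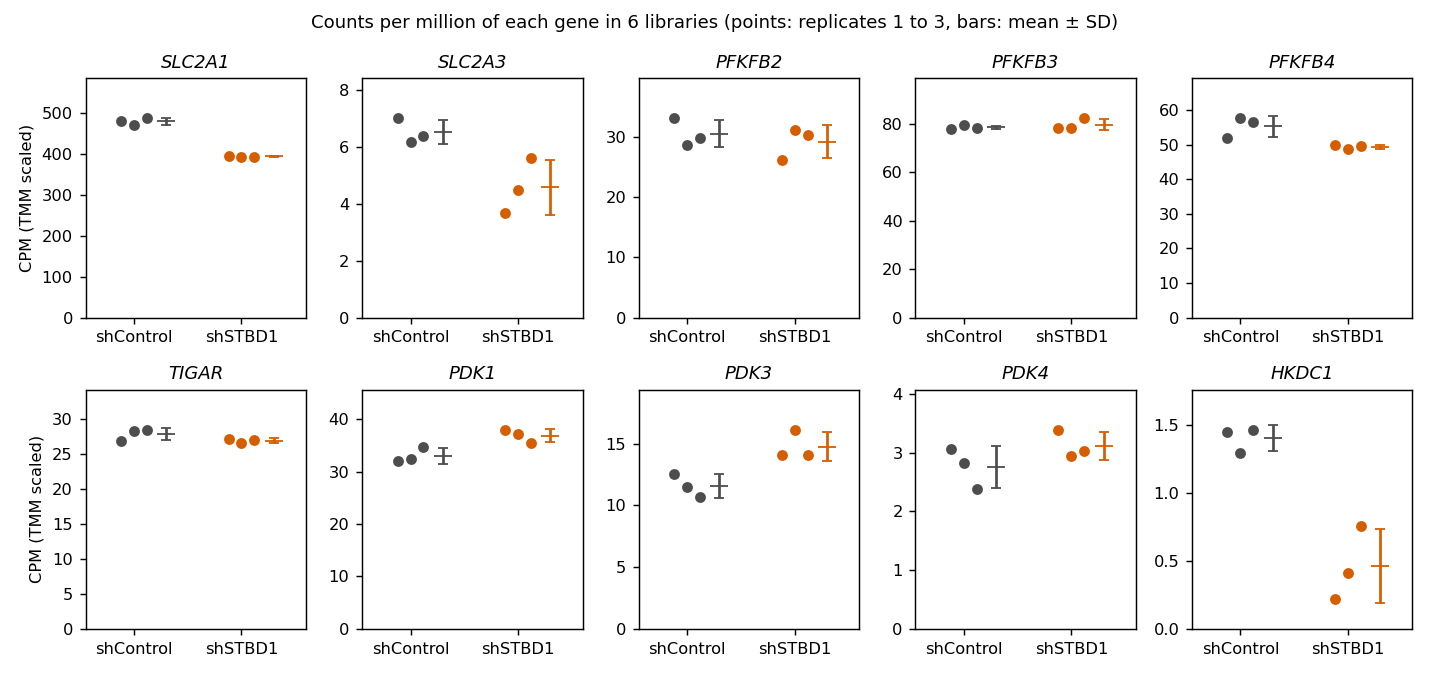
Scaled counts (CPM, TMM scaled, linear axes from 0) of each of the 10 genes in the 3 shControl and 3 shSTBD1 libraries, with points for single libraries and bars for the mean ± SD. SLC2A1, SLC2A3, PFKFB4 and HKDC1 lie lower in every shSTBD1 library, PDK1 and PDK3 lie higher, and the groups overlap for PFKFB2, PFKFB3, TIGAR and PDK4.

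Several of these genes are textbook targets of the hypoxia-inducible factors, which bind the cores ACGTG and GCGTG, while MYC and the glucose-sensing factors bind the E-box CACGTG. RefSeq promoter windows of GRCh38.p14, from 250 bases before to 50 bases after a start site, are at hand for 8 of the 10 genes, with 10 windows in all. The windows of the 4 called genes that have one are shown because these genes carry the calls of this comparison, printed along the gene's strand with each core in capitals.
SLC2A1: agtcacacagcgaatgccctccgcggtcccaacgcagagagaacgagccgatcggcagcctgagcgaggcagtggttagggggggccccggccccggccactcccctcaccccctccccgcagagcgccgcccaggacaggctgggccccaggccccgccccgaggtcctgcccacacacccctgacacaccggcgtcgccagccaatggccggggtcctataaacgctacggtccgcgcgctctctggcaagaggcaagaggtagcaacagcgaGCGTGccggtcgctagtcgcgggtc
PFKFB4: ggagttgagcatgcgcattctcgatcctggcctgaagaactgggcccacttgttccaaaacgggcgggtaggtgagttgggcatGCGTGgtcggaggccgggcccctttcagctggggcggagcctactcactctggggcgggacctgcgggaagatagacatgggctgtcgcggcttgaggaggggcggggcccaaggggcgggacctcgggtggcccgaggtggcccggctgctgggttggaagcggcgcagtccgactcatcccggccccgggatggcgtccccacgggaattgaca
HKDC1: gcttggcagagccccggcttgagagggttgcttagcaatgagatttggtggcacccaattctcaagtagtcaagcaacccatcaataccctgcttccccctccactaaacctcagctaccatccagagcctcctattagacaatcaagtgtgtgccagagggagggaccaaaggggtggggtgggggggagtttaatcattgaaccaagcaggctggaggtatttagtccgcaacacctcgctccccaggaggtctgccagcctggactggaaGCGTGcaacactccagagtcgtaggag
PDK3: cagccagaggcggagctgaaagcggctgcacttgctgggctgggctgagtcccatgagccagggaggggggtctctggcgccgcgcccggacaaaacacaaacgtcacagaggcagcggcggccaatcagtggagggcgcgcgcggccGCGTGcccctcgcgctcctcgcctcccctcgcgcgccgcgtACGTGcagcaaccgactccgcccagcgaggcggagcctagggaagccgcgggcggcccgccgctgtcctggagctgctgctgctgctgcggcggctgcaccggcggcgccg
These windows are chr1:42958819-42959118 (minus strand), chr3:48556754-48557053 (minus strand), chr10:69220082-69220381 (plus strand) and chrX:24465036-24465335 (plus strand).

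SLC2A1 holds GCGTG with its first base 26 bases after the start site, and HKDC1 holds the same core 24 bases after it. In PFKFB4 a GCGTG begins at -166, counted from the start site. Each start site is that of the RefSeq window, which can differ from the gene start given below, as for PFKFB4 and TIGAR. PDK3, the called gene that moves the other way, carries GCGTG at -102 and ACGTG at -61. Both strands of all windows were searched, and CACGTG always contains ACGTG. Of the 10 windows 8 hold ACGTG or GCGTG, and so do 48.4% of the 35116 RefSeq promoter windows of this length. ACGTG alone is in 21.4% of them, GCGTG in 36.5% and CACGTG in 7.26%. The second PDK1 window holds ACGTG on the opposite strand at -17 and -8, TIGAR holds it at -71, and CACGTG occurs once, at -108 in the second PFKFB3 window. The first PFKFB3 window holds GCGTG on the opposite strand at -168. The PDK4 window and the first PDK1 window have none of these letters. A match describes the sequence and not a bound site.

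SLC2A1 (ENSG00000117394, chromosome 1, 42925353 to 42958893, minus strand, GRCh38) encodes GLUT1, the basal glucose transporter of most cell types and of many tumors. Its CPM is 481.4, 470.5 and 487.4 in shControl 1 to 3 and 395.9, 393.9 and 393.4 in shSTBD1 1 to 3. The libraries of each group lie close together, and the lowest shControl library is far above the highest shSTBD1 library. The mean changes from 479.8 ± 8.59 to 394.4 ± 1.301 CPM (SD, n = 3), so that SLC2A1 fell by 17.8%. The log2 fold change is -0.28 (SE 0.030) with an adjusted p of 6.3e-06 in edgeR. It passes 0.05 in 18 of 18 alternative settings, where the adjusted p runs from 1.9e-17 to 0.022. No other of the 10 genes is called in every alternative that gives it an adjusted p.

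SLC2A3 (ENSG00000059804, chromosome 12, 7919230 to 8019007, minus strand) encodes GLUT3, the high-affinity transporter best known from neurons. It reads 7.01, 6.18 and 6.38 CPM in shControl and 3.66, 4.51 and 5.60 CPM in shSTBD1. The groups do not overlap, but shSTBD1 3 comes near the lowest shControl library. SLC2A3 fell by 29.4%, with a log2 fold change of -0.50 (SE 0.15, adjusted p = 0.03 in edgeR). These values rest on 113 to 135 reads per shControl library and 67 to 111 reads per shSTBD1 library. The call is lost when any of shControl 1, shControl 3, shSTBD1 1 or shSTBD1 2 is left out, and its adjusted p then lies between 0.0594 and 0.123, within 0.0056 to 0.2 over all alternatives, where effective-length offsets and limma on TPM lose it too. SLC2A14, the near-identical copy of SLC2A3, is at 0 TPM in 5 libraries and at 0.07 TPM in the other, and with its reads added the log2 fold change is -0.49 (adjusted p = 0.0327 in edgeR).

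Measured per transcript length, SLC2A1 is the main hexose transporter of these cells. It holds 88.6 ± 0.71% (SD, n = 3) of the summed TPM of 13 facilitative transporters in shControl and 85.7 ± 0.42% in shSTBD1, and SLC2A3 holds 0.634 ± 0.020% and 0.535 ± 0.096%. The summed level of the family is 382.2, 359.1 and 377.3 TPM in shControl and 323.1, 316.5 and 303.8 TPM in shSTBD1. No library of one group enters the range of the other for this sum or for the SLC2A1 share (exact permutation test, p = 0.1 for each), while the SLC2A3 shares overlap.

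A further 13 hexose transporters outside the chosen genes give 7 tested genes, 1 of them called, beside 15.8% of all tested genes. SLC2A6, a transporter of lysosomal membranes, is higher, from 16.6 ± 0.72 to 20.3 ± 1.01 CPM (log2 fold change 0.29, SE 0.070, adjusted p = 0.0087 in edgeR). SLC2A2 and SLC2A10 are at 0 in every library, and the 7 tested genes have a median log2 fold change of 0.196. MLXIPL, the glucose-responsive factor ChREBP, is higher by 0.27 (SE 0.057, adjusted p = 0.0044), and EPAS1, the oxygen-regulated subunit HIF-2 alpha, by 0.27 (SE 0.043, adjusted p = 0.00033), both in the same edgeR test. They belong to a list of 16 regulators of glucose uptake and of the 10 genes, of which 14 are tested. In this list 3 rose and 2 fell, beside 8.22% of all tested genes called higher and 7.54% called lower. MYC, which drives glycolytic genes in tumors, rose by 0.13 (adjusted p = 0.022 in edgeR), while PPARA, a fatty acid sensor that induces PDK4, fell by 0.23 (adjusted p = 0.044). Not called in this list are HIF1A, ARNT and MLXIP (log2 fold changes 0.038, -0.016 and 0.001 in edgeR). The median log2 fold change of the 14 is 0.042. SLC2A6, MLXIPL, EPAS1, MYC and PPARA each lose their call in some settings, from 3 of 18 for MLXIPL and EPAS1 to 11 of 18 for PPARA.

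HKDC1 (ENSG00000156510, chromosome 10, 69220332 to 69267552, plus strand) encodes a hexokinase domain-containing protein that phosphorylates glucose weakly. It is read 28, 27 and 26 times in shControl and 4, 9 and 15 times in shSTBD1, or 1.45, 1.29 and 1.47 against 0.219, 0.414 and 0.756 CPM. The groups are apart, and the shSTBD1 libraries differ among themselves more than those of shControl. By counting error alone, the 95% Poisson interval of the lowest shControl count is 17.0 to 38.1 reads and that of the highest shSTBD1 count is 8.40 to 24.7 reads, so that these intervals overlap. HKDC1 fell by 66.4%, the largest change among the 10 genes, with a log2 fold change of -1.57 (SE 0.36, adjusted p = 0.0074 in edgeR). It remains called with each library left out in turn (adjusted p from 0.0052 to 0.0495), and not with effective-length offsets or limma on TPM, where the adjusted p is 0.136 to 0.168 and the range over all alternatives is 0.00034 to 0.17.

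HKDC1 is a minor hexokinase in these cells. Its share of the summed TPM of 5 hexokinases is 0.983 ± 0.34% (SD, n = 3) in shControl and 0.328 ± 0.20% in shSTBD1, and these shares do not overlap. The summed level itself, 71.7 ± 2.54 and 74.1 ± 2.25 TPM, overlaps between the groups (exact permutation test, p = 0.4). In a list of 9 other hexose kinases, phosphofructokinases and PFKFB1, 7 are tested and 2 are called, both higher, beside 15.8% of all tested genes called in either direction. ADPGK, an ADP-dependent glucokinase of the endoplasmic reticulum, goes from 43.7 ± 1.69 to 58.6 ± 0.60 CPM (log2 fold change 0.42, SE 0.045, adjusted p = 7e-06 in edgeR), and PFKM, the muscle-type phosphofructokinase, from 141.9 ± 1.52 to 153.5 ± 2.92 CPM (log2 fold change 0.11, adjusted p = 0.024 in edgeR). The PFKM levels per length, 97.6 ± 5.38 and 95.1 ± 7.53 TPM, do not show this direction. ADPGK keeps its call in 16 of 18 alternatives and PFKM in 11 of 18, and the median log2 fold change of the 7 tested genes is 0.067. Among 6 genes of fructose bisphosphatases and the glucose 6-phosphatase system, which run the opposite steps, 2 are tested. At an adjusted p of 0.05, 0 of them are called by edgeR, beside 15.8% of all tested genes, and 0 in any alternative (median log2 fold change -0.031).

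PFKFB4 (ENSG00000114268, chromosome 3, 48517684 to 48562015, minus strand) is a bifunctional isoform with both kinase and phosphatase activity that hypoxia induces in many tumors. Its CPM is 51.9, 57.6 and 56.6 in shControl and 49.9, 48.7 and 49.6 in shSTBD1. The groups do not overlap, although shControl 1 lies nearer to the shSTBD1 libraries than to shControl 2. PFKFB4 fell by 10.8%, from 55.4 ± 3.06 to 49.4 ± 0.61 CPM (SD, n = 3), with a log2 fold change of -0.16 (SE 0.048, adjusted p = 0.027 in edgeR). This call is lost with DESeq2 (adjusted p = 0.0606), with library size alone as the scaling (0.0598 in edgeR) and in 5 of 6 fits that leave out a library, where only the omission of shControl 1 keeps it. With effective-length offsets and limma on TPM it is lost as well, and the alternatives together span adjusted p-values from 0.0022 to 0.29.

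PFKFB3 (ENSG00000170525, chromosome 10, 6144934 to 6254644, plus strand), the isoform with the strongest kinase activity, reads 77.9, 79.4 and 78.4 CPM in shControl and 78.3, 78.5 and 82.3 CPM in shSTBD1. The groups overlap and all 6 libraries lie within a narrow range. Its log2 fold change is 0.02 (SE 0.038, adjusted p = 0.77 in edgeR). PFKFB2 (ENSG00000123836, chromosome 1, 207034366 to 207081024, plus strand), the isoform first known from heart, reads 33.1, 28.7 and 29.9 CPM in shControl and 26.3, 31.3 and 30.3 CPM in shSTBD1. Replicate 1 is the highest library of shControl and the lowest of shSTBD1, and the ranges overlap. The log2 fold change of PFKFB2 is -0.06 (SE 0.071, adjusted p = 0.63 in edgeR).

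PFKFB1, the liver isoform, is read rarely, at 0.72 ± 0.13 CPM in shControl and 0.35 ± 0.073 CPM in shSTBD1 (log2 fold change -1.03, SE 0.39, adjusted p = 0.082 in edgeR). Summed over all 4 isoforms, PFKFB transcripts amount to 56.6, 63.6 and 55.4 TPM in shControl and 53.8, 55.2 and 54.6 TPM in shSTBD1. These sums do not overlap (exact permutation test, p = 0.1), but the lowest shControl value and the highest shSTBD1 value lie side by side. Within the sum, PFKFB3 has 46.5 ± 2.12% in shControl and 47.3 ± 1.43% in shSTBD1, and PFKFB4 has 40.9 ± 2.27% and 39.0 ± 0.65%, with overlapping ranges for both.

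TIGAR (ENSG00000078237, chromosome 12, 4307763 to 4360028, plus strand), a phosphatase that lowers the activator the PFKFB enzymes make, reads 26.9, 28.3 and 28.5 CPM in shControl and 27.1, 26.5 and 27.0 CPM in shSTBD1. The groups overlap through shControl 1. Its log2 fold change is -0.05 (SE 0.055, adjusted p = 0.58 in edgeR). In TPM, which divides by the effective length of the transcripts present, the same gene reads 11.9, 13.2 and 13.6 in shControl and 13.1, 14.0 and 15.5 in shSTBD1. Here the order of the group means is turned round, and the ranges overlap again.

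This difference between the scales comes with a difference in length. RSEM's effective length is the mean length of a gene's transcripts, weighted by their estimated abundance and less the fragment length, and thus moves when the mixture of isoforms or its estimate moves. For TIGAR it is 2509, 2505 and 2395 bases in shControl and 2347, 2118 and 1961 bases in shSTBD1. All 3 shSTBD1 values are below all 3 shControl values, a mean difference of -328 bases (exact permutation test, p = 0.1). TIGAR is 1 of 10 genes with such a separation in effective length, beside 9.55% of all tested genes. TIGAR has 4 annotated transcripts in the files. PFKFB2 and PFKFB3 also change the sign of their fold change with effective-length offsets and in limma on TPM, though not with gene-length offsets, with effective lengths of 5177 ± 479.2 against 4649 ± 815.5 bases and 3326 ± 328.4 against 3476 ± 104.3 bases (SD, n = 3) that overlap between the groups.

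PDK3 (ENSG00000067992, chromosome X, 24465244 to 24550466, plus strand) encodes a kinase that switches off pyruvate dehydrogenase and is itself little inhibited by pyruvate. It reads 12.6, 11.5 and 10.7 CPM in shControl and 14.1, 16.1 and 14.1 CPM in shSTBD1. All 3 shSTBD1 libraries lie above the highest shControl library. PDK3 rose 1.28-fold, from 11.6 ± 0.95 to 14.77 ± 1.184 CPM (SD, n = 3), with a log2 fold change of 0.35 (SE 0.089, adjusted p = 0.013 in edgeR). Its counts run from 189 to 351 reads per library. Without shControl 3 the adjusted p is 0.0558 and without shSTBD1 2 it is 0.0865. Effective-length offsets and limma on TPM also lose the call, in a range of 0.002 to 0.19 over all alternatives.

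PDK1 (ENSG00000152256, chromosome 2, 172555373 to 172608669, plus strand), the pyruvate dehydrogenase kinase that hypoxia induces and not the phosphoinositide-dependent kinase of the same abbreviation, reads 31.9, 32.3 and 34.7 CPM in shControl and 38.0, 37.2 and 35.5 CPM in shSTBD1. The groups do not overlap, with shControl 3 and shSTBD1 3 close to each other. The log2 fold change is 0.16 (SE 0.054) and misses the threshold, with an adjusted p of 0.052 in edgeR. It passes in 4 of 18 alternatives, among them the fit without shControl 3 (adjusted p = 0.0446), over a range of 0.023 to 0.62. In TPM the PDK1 groups overlap, at 7.10, 8.82 and 11.3 in shControl and 11.03, 10.3 and 9.19 in shSTBD1.

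PDK4 (ENSG00000004799, chromosome 7, 95583499 to 95596516, minus strand), the kinase induced by fasting and fatty acids, is read 59, 59 and 42 times in shControl and 62, 64 and 60 times in shSTBD1. In CPM these are 3.06, 2.83 and 2.37 against 3.39, 2.94 and 3.03, and the groups overlap. Its log2 fold change is 0.17 (SE 0.18, adjusted p = 0.57 in edgeR). PDK2, a broadly expressed kinase of the family, is at 32.0 ± 2.22 CPM in shControl and 32.2 ± 0.92 CPM in shSTBD1 (log2 fold change 0.01, SE 0.059, adjusted p = 0.91 in edgeR).

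Summed over all 4 kinases, PDK transcripts stand at 37.2, 41.5 and 40.5 TPM in shControl and 43.0, 43.9 and 44.97 TPM in shSTBD1, without overlap (exact permutation test, p = 0.1). The enzymes that undo their work are the phosphatases PDP1 and PDP2. PDP1, at 358.0 ± 7.19 TPM in shControl and 350.9 ± 9.53 TPM in shSTBD1, holds nearly all of their RNA and is not called (972.0 ± 11.9 and 973.6 ± 9.63 CPM, log2 fold change 0.002, adjusted p = 0.97 in edgeR). PDP2, at 11.4 ± 1.08 and 9.28 ± 0.88 TPM, fell by 0.17 on the log2 scale, from 38.6 ± 1.05 to 34.3 ± 0.92 CPM (SE 0.050, adjusted p = 0.027 in edgeR). PDP2 keeps this call in 8 of 18 alternatives (adjusted p from 0.025 to 0.23). It is the only called gene among 11 tested of a list of 12, beside 15.8% of all tested genes. The list holds genes that form, switch or feed the pyruvate dehydrogenase complex, without PDK1, PDK3 and PDK4. The median log2 fold change of this list is -0.017.

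**Figure D2:**
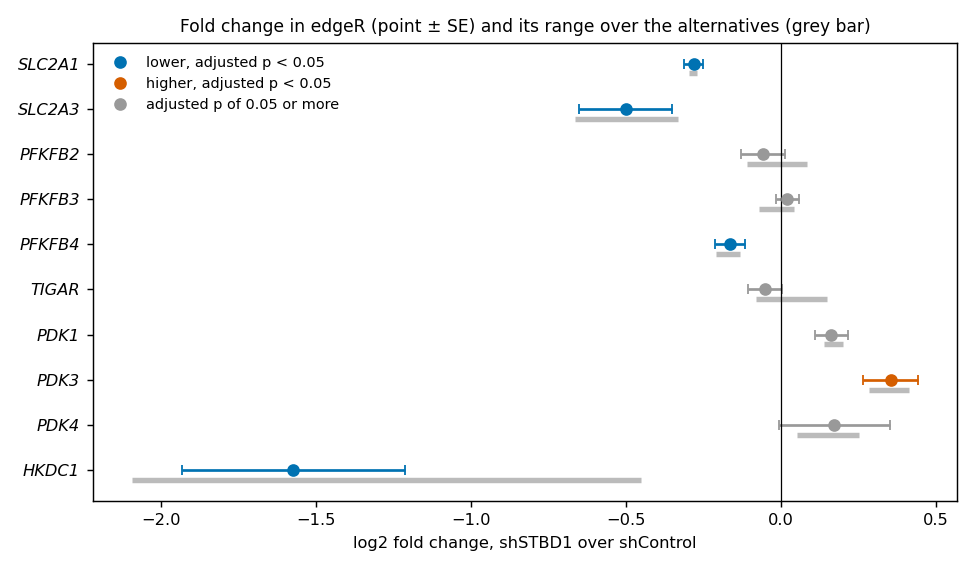
Log2 fold change of each gene (shSTBD1 over shControl, linear axis) from edgeR as a point with its standard error, and the range of the fold change over all alternative settings as a grey bar. SLC2A1 has the narrowest range, from -0.30 to -0.27, HKDC1 the widest, from -2.10 to -0.45, and the bars of PFKFB2, PFKFB3 and TIGAR cross 0.

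Levels of different genes are compared in TPM. SLC2A1 stands first in both groups, at 330.4 ± 10.9 TPM in shControl and 269.5 ± 8.01 TPM in shSTBD1. PFKFB3 (27.2 ± 3.30 and 25.8 ± 0.96 TPM) and PFKFB4 (23.9 ± 1.95 and 21.3 ± 0.23 TPM) follow at a distance. These neighbours overlap in shControl and not in shSTBD1. TIGAR is next, at 12.9 ± 0.88 and 14.2 ± 1.19 TPM. PDK1 (9.08 ± 2.12 and 10.2 ± 0.93 TPM) and PDK3 (8.39 ± 0.74 and 10.6 ± 1.04 TPM) overlap in both groups, and in shControl PDK3 also overlaps with PFKFB2 (6.81 ± 1.02 and 7.18 ± 0.93 TPM). SLC2A3 lies at 2.36 ± 0.14 and 1.68 ± 0.26 TPM, PDK4 at 1.06 ± 0.27 and 1.12 ± 0.11 TPM, and HKDC1 at 0.71 ± 0.27 and 0.243 ± 0.15 TPM. In every library the SLC2A3 value is below RSEM's own credibility interval for it, as in shControl 1 (2.51 against 3.03 to 6.68 TPM). The HKDC1 intervals of the groups overlap, as in shControl 2 (0.376 to 1.38 TPM) and shSTBD1 3 (0.278 to 1.40 TPM). HKDC1 overlaps with PDK4 in shControl and lies below it in shSTBD1.

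**Figure D3:**
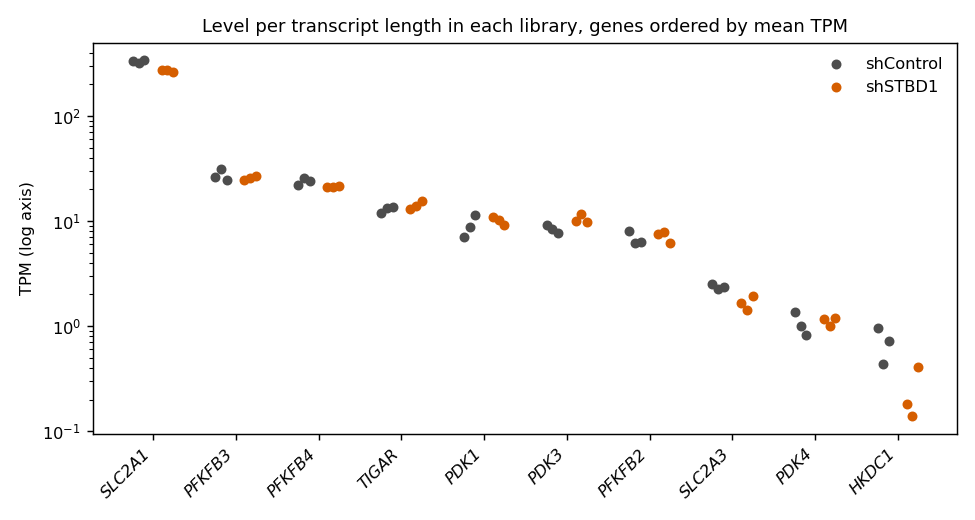
Level per transcript length (TPM, log axis) of each gene in each library, with genes in the order of their mean over all 6 libraries. SLC2A1 lies between 260.4 and 337.1 TPM, the PFKFB3 and PFKFB4 points mix in shControl, PDK1 and PDK3 mix in both groups, and HKDC1 is below 1 TPM everywhere.

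The balance between genes with shared or opposed roles is compared as the log2 ratio of their TPM in each library, for 6 ratios. The ratio of summed PDK1, PDK3 and PDK4 to summed PDP1 and PDP2 is -4.37, -4.33 and -4.25 in shControl and -4.05, -3.92 and -4.17 in shSTBD1. Of the 6 ratios in TPM it is the only one whose groups do not overlap, with a difference of 0.27 (exact permutation test, p = 0.1, adjusted p = 0.45 over 6 ratios), and 0.1 is the smallest p this test can give. This ratio leaves out PDK2, which has the highest TPM of the pyruvate dehydrogenase kinases and is not called. PDK2 is at 21.2 ± 1.86 TPM in shControl and 22.1 ± 2.27 TPM in shSTBD1, and a ratio that includes it was not computed. SLC2A1 to SLC2A3 is 7.13 ± 0.055 in shControl and 7.34 ± 0.26 in shSTBD1, PFKFB3 to PFKFB4 is 0.184 ± 0.13 and 0.279 ± 0.044, and PDK1 to PDK3 is 0.091 ± 0.46 and -0.052 ± 0.17 (SD, n = 3), all with overlapping groups. In CPM the difference of PFKFB3 to PFKFB4 is 0.18, with p = 0.1 in the same exact permutation test. PFKFB3 to PFKFB2 is 2.00 ± 0.31 and 1.85 ± 0.23 and overlaps too, and its difference turns from -0.15 in TPM to 0.085 in CPM. The summed PFKFB2, PFKFB3 and PFKFB4 to TIGAR is 2.17 ± 0.14 and 1.94 ± 0.11, a difference of -0.23 in TPM against -0.004 in CPM, which takes no account of length.

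Read sharing with related genes is small for the 10 genes. RSEM's posterior standard deviation of the count is 0 for 8 of them in every library, and its highest value is 0.0440% of the count for PFKFB4 and 0.158% for PDK1.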

How the data were processed

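RNA-seq libraries of 3 shControl and 3 shSTBD1 replicates were grouped by their labels. The authors discarded adapter-containing, poly-N and low-quality reads and mapped the others to Hg38 (STAR 2.7.1a, Ensembl gene models) and ran RSEM 1.3.1 per library. The deposited expected counts are not normalized. TPM values, also deposited by the authors, are scaled by effective length to a fixed total. The strand setting is not given in the sources used here, so overlapping antisense reads cannot be told apart.

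Expected counts were rounded and filtered with edgeR's filterByExpr (15566 of 58395 genes kept). They were scaled by TMM and compared by the quasi-likelihood F-test of edgeR 4.0.16 (under R 4.3.3, no block), with Benjamini-Hochberg adjustment over all tested genes. SE values come from the fold change and the F statistic. Single values were compared by exact two-sided permutation tests over the 10 divisions of 6 libraries (scipy 1.17.1). Symbols (57754 genes matched) and positions are from a GENCODE annotation of the same build, GRCh38, that is later than the authors' one.

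The 10 genes and all lists were chosen with earlier results of these data known. Named genes are the 10 genes, STBD1, listed genes with an adjusted p under 0.05, and the paralogs SLC2A14, PFKFB1 and PDK2. Of the listed genes past that threshold, 1 is not reported here. SLC2A2, SLC2A10, PDP1, HIF1A, ARNT, MLXIP, EPCAM, CDX2, COL1A1 and the markers at or near 0 are named in addition, after their values were seen. Alternatives were DESeq2 1.42.0, limma 3.58.1 on log2(TPM + 1) or log2(TPM + 0.1), other scalings, filters and offsets, unrounded counts, the replicate number as a block, and leaving out each library. Same-numbered libraries deviate together with r between -0.008 and 0.071 (mean 0.044), and differently numbered ones between -0.074 and 0.01 (mean -0.022). The numbers were to count as pairs only with every same-numbered r over 0.1, so they were not taken as pairs. A weak pairing could stay below this threshold. Scripts were tested on simulated data. Poisson intervals cover counting error only. The p-values of the fits set the group difference against the spread between these replicates, which is estimated in part from all tested genes together. In edgeR the common spread beyond counting error (biological coefficient of variation) is 3.37%. Whether the replicates are separate infections is not said.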

Additional observations from a re-analysis of the deposited data

How the results depend on the processing

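Of the 10 genes, 5 are called by edgeR, 4 lower and 1 higher. DESeq2 calls 3 (2 lower), and offsets for effective length, limma on log2(TPM + 1) and limma on log2(TPM + 0.1) each call 1, which is lower, and 0 higher. The higher calls are 2 with at least 10 counts in every library, with gene-length offsets and with the replicate block plus gene-length offsets, where PDK1 passes. With each library left out, 2 to 4 genes are called, 2 to 3 lower and 0 to 1 higher, with the fewest without shSTBD1 2. PFKFB2 turns to 0.0824, 0.0677 and 0.0765 (log2) with effective-length offsets, limma with 1 added and limma with 0.1 added, PFKFB3 to -0.0658, -0.0696 and -0.0718, and TIGAR to 0.15, 0.12 and 0.13. With libraries left out, PFKFB2 runs from -0.11 to 0.0085 and PFKFB3 from -0.0034 to 0.0321, and no other of the 10 genes turns. STBD1 is -0.54 (adjusted p = 0.0646) and -0.65 (adjusted p = 0.0672) in the limma fits, in a range of 6.6e-10 to 0.067. The cause of these differences was not tested. Over all genes edgeR calls 2453, against 511 with effective-length offsets and 292 and 290 with limma, and leaving out a library gives 1409 to 2577, more than 1.5 times fewer without shSTBD1 1 (1570), shSTBD1 2 (1409) or shSTBD1 3 (1497). With the replicate number as a block, 5 of the 10 genes are again called, and PDK1 stays at 0.16 (adjusted p = 0.063 in edgeR). Without the block the calls number 2453 over all genes, and with it 2579. DESeq2 gives no adjusted p for HKDC1 and PDK4, and HKDC1 is not tested with at least 10 counts in every library. HKDC1, SLC2A3 and PDK4 have the fewest reads and the widest errors.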

Other observations

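TXNIP, a glucose-induced arrestin that removes GLUT1 from the cell surface, holds 0 counts in all 6 libraries. It was singled out after its values were seen. Whether its RNA is absent or its reads were not assigned to this gene was not tested.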
